A study of Danio rerio with 2 samples.

Results

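The miRNAs described here are those of the cartilage and mesenchyme families miR-140, miR-199, miR-214 and miR-455, followed in zebrafish embryos in which Tbx5 was depleted. They were taken by name from the deposited list of miRNAs, with any letter or locus number, and not by a cut on their values. The families themselves were chosen with earlier results of these data known. The choice by name gave 5 entries of 173, namely miR-140, miR-199, miR-214, miR-455 and miR-455b, and all 5 were listed above 0 in both libraries. The entries stand for 7 hairpin loci, because miR-199 joins 3 loci in a single value.

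Small RNAs were sequenced from 1 library of MO-Tbx5a embryos and 1 library of MO-Ct embryos, both of the wild type AB strain at 48 hpf. Morpholinos, synthetic antisense molecules that keep a bound mRNA from being translated or spliced, were injected at the 1-cell stage. The labels give 1.5 ng of MO-Tbx5a in the Tbx5 depleted group and 1.5 ng of a control morpholino, MO-Ct, in the control group, with RNA taken from 50 embryos. The paper describes the depleted embryos of this experiment as injected with MO-Tbx5a together with MO-Tbx5b, and as picked under the microscope for the heartstring phenotype, a stretched and unlooped heart. Knockdown by morpholino is transient and incomplete, the embryos were pooled whole, and fins were not dissected. A library of small RNAs holds no Tbx5 mRNA, so depletion could not be checked in these data. Each condition was sequenced once, so the conditions could not be tested against each other and every difference below is one between 2 libraries, with no replicate to check it.

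Tbx5 is a T-box transcription factor of the heart and of the forelimb or pectoral fin field. In zebrafish, tbx5a is needed in the lateral plate mesoderm for the fin mesenchyme to gather and for fin bud outgrowth, so embryos without it lack pectoral fins. miRNAs are short RNAs that guide silencing complexes to mRNAs through the seed at their 5′ end. miR-140 is known as a miRNA of cartilage, and in zebrafish it acts on pdgfra in the neural crest cells that build the palate. In mouse, miR-199 and miR-214 are made together from a transcript on the opposite strand of the dynamin 3 gene and are found in skeletal mesenchyme. miR-455 is expressed in cartilage in mouse, where it is made from within Col27a1, a gene for a fibrillar collagen of cartilage. The comparison asks how far these miRNAs of cartilage and mesenchyme differed between the libraries. The paper reports cardiac and fin defects in most embryos injected with both morpholinos, but gives no separate fin score for the sequenced embryos. Whether these miRNAs are made in the pectoral fin was not examined here.

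The level of each miRNA is given in rpm, its reads relative to all reads assigned to listed miRNAs, scaled to 1000000. All 173 rpm values of either library came out as whole numbers of reads, within their rounding. They corresponded to 580312 reads for MO-Tbx5a and 1150157 reads for MO-Ct, a depth 1.98 times as large for MO-Ct. FC is the rpm in MO-Tbx5a embryos divided by the rpm in MO-Ct embryos, without a pseudocount, so a FC below 1 means a lower level in MO-Tbx5a embryos. The interval beside each value is an exact Clopper-Pearson interval at 95% and covers counting error only, since PCR copies are not independent molecules. As a guide to the background, 107 abundant miRNAs, those with more than 200 rpm in each library, had a median FC of 0.910 (-0.14 in log2 units). Most of these were thus lower in MO-Tbx5a embryos, and the FC of the 5 entries is also given after division by this median, which was treated as fixed.

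miR-140 was lower in MO-Tbx5a embryos, and the other 4 entries had intervals that included a FC of 1. No entry was past the 1.8-fold threshold in either direction (0 of 5 lower and 0 of 5 higher). Among the 162 entries with reads in both libraries, 9.88% were past it on the lower side and 1.85% on the higher side. The paper used this threshold together with more than 200 rpm, and reports miRNAs past it in both directions. The 107 abundant miRNAs had to exceed 200 rpm in both libraries, which the paper does not state. Their counts are therefore not those of the paper. miR-7b, with 129 rpm in MO-Tbx5a embryos and 361 rpm in MO-Ct embryos, is left out of them. So is miR-34, with 246 rpm in MO-Tbx5a embryos and 89.6 rpm in MO-Ct embryos. Of the 107, 3 were past the threshold on the lower side and 0 on the higher side. An interval below 1 was found for 1 of the 5, while 45.7% of the 162 had one. An interval above 1 was found for 0 of the 5, against 17.9% of the 162. Shares of all miRNAs given below are also of these 162. The other 11 of the 173 entries were listed at 0 in MO-Tbx5a and above 0 in MO-Ct. They have no FC, so the shares on the lower side leave them out. The FC of the 5 entries ran between 0.753 for miR-140 and 1.07 for miR-455, with a median of 0.947. Their median log2 FC was -0.08, compared with -0.16 over all 162 miRNAs. By this median, which is the value of miR-199, the list was no lower than the listed miRNAs in general. The summed FC of the 5, given below, was 0.893, close to the median FC of 0.897 over the 162.

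**Figure D1:**
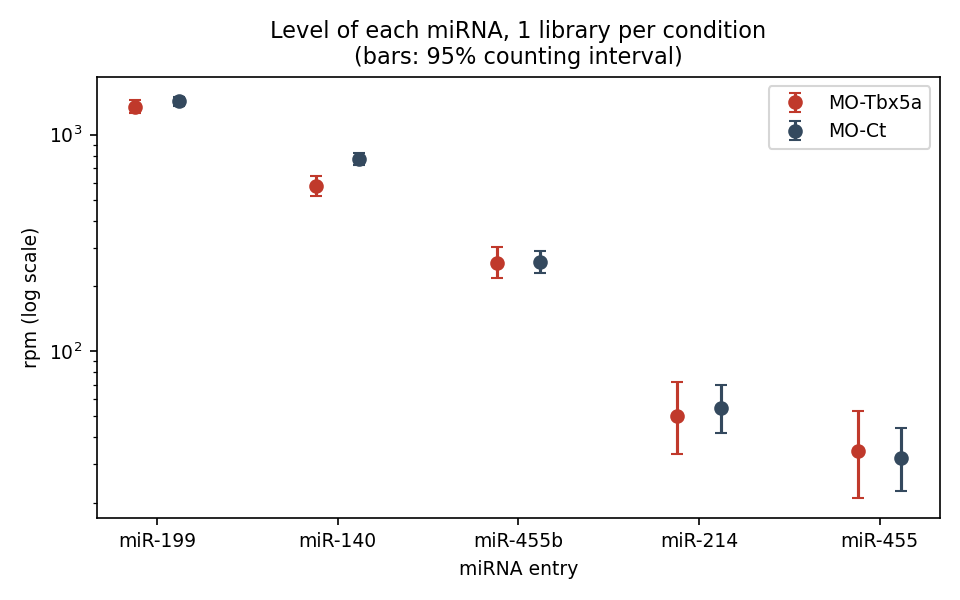
Level of the 5 miRNA entries in rpm on a log axis, with MO-Tbx5a in red and MO-Ct in dark blue and 95% counting intervals as bars. miR-140 is the entry whose intervals do not overlap, with 580.7 rpm in MO-Tbx5a embryos and 771 rpm in MO-Ct embryos.

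miR-140, the cartilage miRNA, had 580.7 rpm in MO-Tbx5a embryos (interval 520.4 to 646) and 771 rpm in MO-Ct embryos (721 to 824). These values rested on 337 reads in MO-Tbx5a embryos and 887 reads in MO-Ct embryos. The intervals of the libraries did not overlap. The FC was 0.753 (0.662 to 0.855), or -0.41 on the log2 scale. Divided by the median of the abundant miRNAs it was 0.828 (0.728 to 0.939), so the interval stayed below 1 when the general shift was taken into account. An interval below that median was found for 1 of the 5 entries, against 34.0% of all miRNAs, and one above it for 0 of the 5, against 27.2%. The interval of miR-140 also stayed below 1 with the trimmed mean of log ratios as the base, at 0.845 (0.743 to 0.959), and when the 3 most abundant miRNAs were left out, at 0.8299 (0.7299 to 0.942). The difference was modest among the abundant miRNAs, since 24 of the 107 had a lower FC. At this depth a FC of 0.887 or lower, or of 1.12 or higher, would have given an interval without 1.

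miR-199 was the most abundant of these miRNAs and differed little between the libraries. It had 1348 rpm (1255 to 1445) in MO-Tbx5a embryos and 1423 rpm (1355 to 1494) in MO-Ct embryos, from 782 and 1637 reads. The intervals overlapped, and the FC was 0.947 (0.868 to 1.03). Divided by the abundant median the FC was 1.04 (0.954 to 1.13), so its direction turned with the scaling while the interval included 1 in both cases. The depth would have shown a FC of 0.917 or lower, or of 1.09 or higher. The value joins 3 loci, so a change at 1 of them could not be seen apart from the others. Divided evenly over them it would be 449 rpm per locus in MO-Tbx5a embryos and 474 rpm per locus in MO-Ct embryos.

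miR-214, the partner of miR-199, was about 27.0 times less abundant than miR-199 in MO-Tbx5a embryos (18.6 to 40.5) and 26.0 times in MO-Ct embryos (20.2 to 34.0). The proportion of the pair was thus alike in the libraries within these intervals. miR-214 had 49.97 rpm (33.5 to 71.8) in MO-Tbx5a embryos and 54.8 rpm (42.1 to 70.1) in MO-Ct embryos, from 29 and 63 reads. The FC was 0.912 (0.566 to 1.44), next to the abundant median, and divided by it the FC was 1.00 (0.623 to 1.58). With so few reads, only a FC of 0.566 or lower, or of 1.51 or higher, could have been told from 1. miR-199 and miR-214 together had 1398 rpm in MO-Tbx5a embryos and 1478 rpm in MO-Ct embryos, a FC of 0.946 (0.869 to 1.03).

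The miR-455 entries belong to a pair of paralogous loci, and miR-455b held most of the reads. miR-455b had 257 rpm (217 to 301) in MO-Tbx5a embryos and 259 rpm (231 to 290.2) in MO-Ct embryos, from 149 and 298 reads. The FC was 0.991 (0.809 to 1.21), and the libraries were level within counting error. Divided by the abundant median it was 1.09 (0.889 to 1.33). miR-455 had 34.5 rpm (21.1 to 53.2) in MO-Tbx5a embryos and 32.2 rpm (22.7 to 44.3) in MO-Ct embryos, from 20 and 37 reads. Its FC of 1.07 (0.589 to 1.89) had the widest interval of the 5 entries and the highest value, and it was 1.18 (0.647 to 2.08) after the same division. miR-455b was 7.45 times as abundant as miR-455 (4.65 to 12.5) in MO-Tbx5a embryos and 8.05 times (5.71 to 11.7) in MO-Ct embryos. Both names together had 291.2 rpm in MO-Tbx5a embryos and 291.3 rpm in MO-Ct embryos, a FC of 1.00 (0.826 to 1.21). The annotation allowed 2 mismatches, so reads of such close names could have been divided between them, and the sum does not depend on that division.

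**Figure D2:**
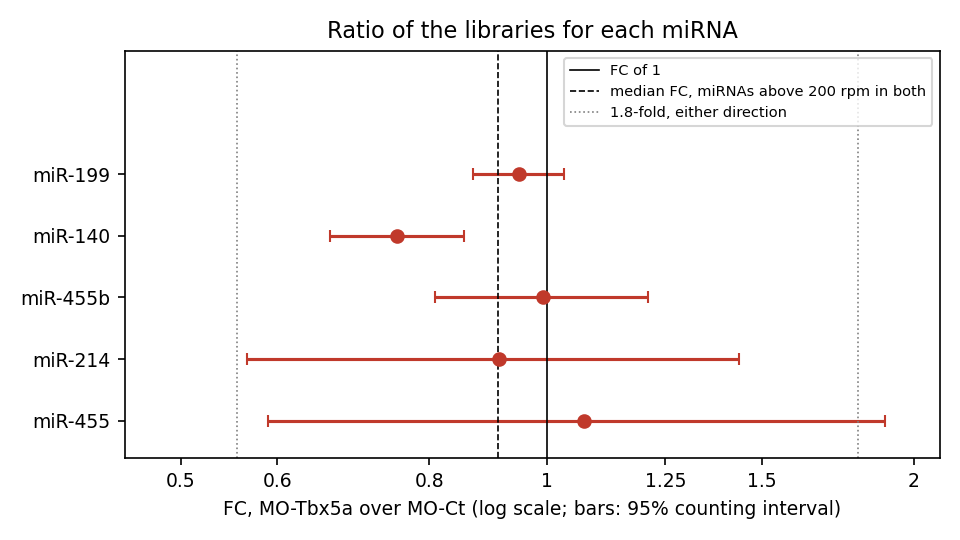
FC of each miRNA (MO-Tbx5a over MO-Ct, log axis) with its 95% counting interval, and lines at a FC of 1, at the median FC of 0.910 and at 1.8-fold in either direction. The interval of miR-140, 0.662 to 0.855, lies left of both the solid and the dashed line, and the other 4 intervals cross both.

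The authors kept sequences with at least 30 occurrences, yet miR-214 and miR-455 were listed for MO-Tbx5a with 29 and 20 reads. How that minimum was applied to the libraries is not given in the sources used here, and its part in these values was not tested.

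The intervals also limit how large a change could have gone unseen. The intervals of all 5 entries stayed above 0.556, the 1.8-fold threshold on the lower side, although that of miR-214 reached down to 0.566. The intervals of 4 entries stayed below 1.8, and that of miR-455 reached past it. A change of the size of the 1.8-fold threshold was thus outside counting error for miR-140, miR-199, miR-455b and miR-214 in both directions, and for miR-455 on the lower side. With its few reads, only a FC of 0.429 or lower, or of 1.71 or higher, would have given miR-455 an interval without 1. A FC of 0.556 for miR-455 could thus not have been told from 1. Variation between batches of embryos or between library preparations was not measured here and is not part of these intervals.

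The order of the levels was the same in both libraries, with miR-199 first, then miR-140, miR-455b, miR-214 and miR-455. Levels of different miRNAs also depend on how well each is captured in library preparation, so the order is one of reads. miR-199 exceeded miR-140 by 2.32 times in MO-Tbx5a embryos (2.04 to 2.64) and by 1.85 times in MO-Ct embryos (1.70 to 2.00). miR-140 exceeded miR-455b by 2.26 times in MO-Tbx5a embryos (1.86 to 2.76) and by 2.98 times in MO-Ct embryos (2.61 to 3.41). miR-455b exceeded miR-214 by 5.14 times in MO-Tbx5a embryos (3.43 to 7.94) and by 4.73 times in MO-Ct embryos (3.59 to 6.31). The neighbours miR-214 and miR-455 did not differ beyond counting error in MO-Tbx5a embryos, with a ratio of 1.45 (0.793 to 2.70). They differed in the deeper MO-Ct library, with a ratio of 1.70 (1.12 to 2.63). The former ratio over the latter was 0.852 (0.401 to 1.83), so the libraries did not differ in it beyond counting error. In rank among the 173 entries, miR-140 stood at 82 in MO-Tbx5a embryos and at 75 in MO-Ct embryos. miR-199 stood at 60 and 59, and miR-214 at 145 in both.

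Each of the 10 pairs of entries was then compared in how its reads divided between the libraries, as the ratio of their FC, from which any common scaling cancels. The interval excluded 1 in 2 of the 10 pairs, and both included miR-140. The pairs share entries and their intervals were not adjusted for the number of pairs. The share of such pairs among all listed miRNAs was not computed, so the count has no background beside it. The FC of miR-199 was 1.26 times that of miR-140 (exact conditional 95% interval of the odds ratio 1.08 to 1.47). The FC of miR-140 was 0.7599 times that of miR-455b (0.598 to 0.967). Against miR-214 the FC of miR-140 was 0.825 times as large (0.513 to 1.35), and against miR-455 it was 0.703 times as large (0.391 to 1.30), so these rarer miRNAs did not differ from miR-140 beyond counting error. In the remaining pairs, which were those without miR-140, the ratio lay between 0.852 for miR-214 over miR-455 and 1.09 for miR-455b over miR-214.

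The 5 entries together took 0.227% of the reads in MO-Tbx5a embryos and 0.254% in MO-Ct embryos, from 1317 and 2922 reads. Their summed FC was 0.893 (0.836 to 0.954). This rested on miR-140, since the other 4 together had 1689 rpm in MO-Tbx5a embryos and 1769 rpm in MO-Ct embryos, a FC of 0.954 (0.884 to 1.03). Divided by the abundant median, the sum of all 5 was at 0.982 (0.919 to 1.05). In a pool of whole embryos, fewer cells of a type and less RNA per cell cannot be told apart.

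**Figure D3:**
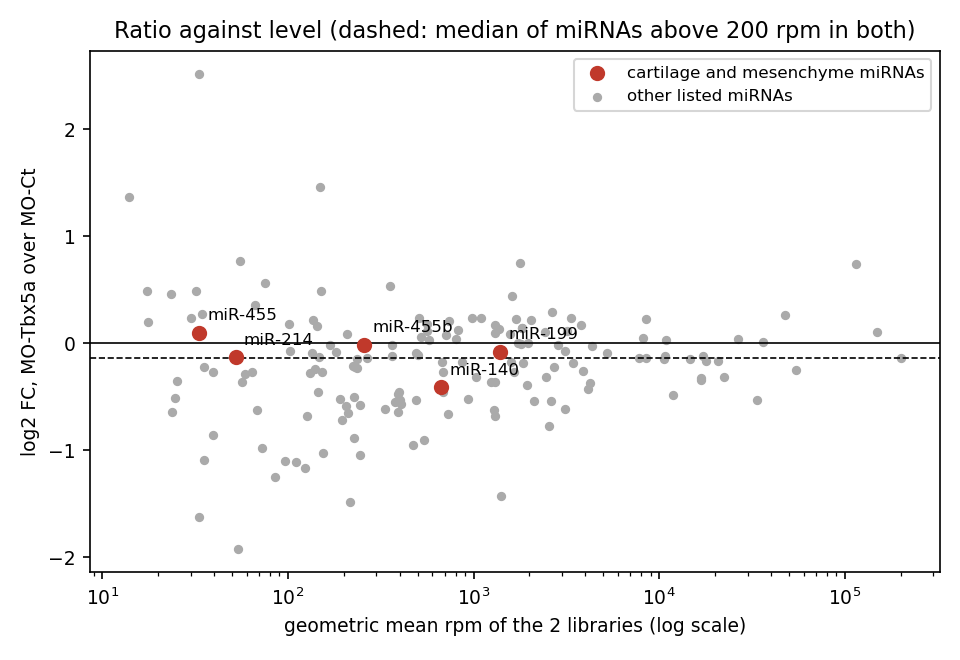
log2 FC (MO-Tbx5a over MO-Ct) against the geometric mean rpm of both libraries on a log axis, for the 162 miRNAs with reads in each. The cartilage and mesenchyme miRNAs, in red, lie between -0.41 for miR-140 and 0.10 for miR-455, within the spread of the other miRNAs at the same level.

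The hairpins share a feature that their choice by name did not use. It is known from mouse at least for miR-199, miR-214 and miR-455, as given above, so it is not a new finding about this set. In RefSeq genes of the GRCz12tu assembly all 7 loci matched 1 miRNA gene each, and 7 of 7 lay within the span of a protein-coding gene. Among all 292 matched loci of the 312 listed, 115 did (39.4%). This share is counted over loci, so miRNAs with many copies weigh more in it, such as miR-430a and miR-430b with 23 listed loci each. The 7 loci are not independent, since several are copies of a miRNA within related genes and mir214a shares its gene with a miR-199 locus. The shares are therefore given side by side only, and their difference was not tested. The table gives neither exons nor strands, so introns and orientation were not read from it. mir140 lay within wwp2, which encodes an E3 ubiquitin ligase. The 3 loci of miR-199 lay within dnm3a, dnm1a and dnm2a, which encode dynamins, the GTPases that pinch off endocytic vesicles, and the locus in dnm1a also lay within the span of rabepk. mir214a was the next gene after the miR-199 locus in dnm3a and lay within the same gene. miR-455 and miR-455b lay within col27a1b and col27a1a. Of the 3 miR-199 loci only the one in dnm3a therefore neighbours mir214a in this table. The rpm of miR-199 joins it with the other loci, and the share of the reads of miR-199 that came from it could not be read.

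The miRNAs nearest to each entry in the plane of both log2 levels were listed as a description over 2 libraries. miR-140 was closest to miR-19c, which had 582 rpm in MO-Tbx5a embryos and 799 rpm in MO-Ct embryos, and then to miR-216b, with 620.4 and 748 rpm. miR-199 was closest to miR-196a, with 1430.3 rpm in MO-Tbx5a embryos and 1307 rpm in MO-Ct embryos, and to miR-429. miR-455b was closest to miR-135c and miR-133c, miR-214 to miR-338 and miR-122, and miR-455 to miR-193b and miR-460. The distances lay between 0.05 log2 units for miR-19c and 0.27 for miR-122.

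Other miRNAs with a known part in cartilage, skeleton or fins were listed as 18 entries of the families miR-27, miR-92, miR-133, miR-143, miR-145, miR-196 and miR-203, while miR-29 had 0 entries. This list, like the muscle and epithelial lists below, was chosen with earlier results of these data known. Among the 17 with reads in both libraries, 2 had an interval below 1, 5 had one above 1 and 10 had one that included 1, beside the 45.7% below and 17.9% above over all miRNAs. After division by the abundant median, 1 was below, 8 were above and 8 included 1, beside 34.0% and 27.2% of all. None was past 1.8-fold (0 lower and 0 higher). The median log2 FC was -0.01, compared with -0.08 for the miR-140, miR-199, miR-214 and miR-455 entries, and after that division the medians were 0.12 and 0.06. miR-27d was listed at 0 in MO-Tbx5a embryos and had 18 reads in MO-Ct embryos. The lowest value listed above 0 for MO-Tbx5a was 11 reads, so a listed 0 may not be a count of 0, and no fold is given.

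miR-196 acts in zebrafish on the Hox code and on the start of the pectoral fin. miR-196a had 1430.3 rpm in MO-Tbx5a embryos and 1307 rpm in MO-Ct embryos, a FC of 1.09 (1.00 to 1.19), and miR-196b had a FC of 1.15 (1.02 to 1.29). miR-196c and miR-196d had intervals that included 1, with FC of 0.856 (0.688 to 1.06) for miR-196c and 0.945 (0.739 to 1.20) for miR-196d. None of the 4 miR-196 entries thus had an interval below 1, beside 45.7% of all miRNAs. After division by the abundant median the FC was 1.20 (1.10 to 1.31) for miR-196a and 1.26 (1.12 to 1.42) for miR-196b. For miR-196c it was then 0.941 (0.756 to 1.17) and for miR-196d 1.04 (0.812 to 1.32), both with intervals that included 1. miR-92a, which in zebrafish takes part in the development of pharyngeal cartilage, had 10386 rpm in MO-Tbx5a embryos and 11258 rpm in MO-Ct embryos, a FC of 0.923 (0.895 to 0.951). This is close to the abundant median, and divided by it the FC was 1.01 (0.983 to 1.05). miR-203a and miR-203b, skin miRNAs that also act in fin regeneration in zebrafish, had FC of 1.03 (0.998 to 1.07) for miR-203a and 1.20 (1.19 to 1.22) for miR-203b, the highest of the list. After the division these were 1.14 (1.10 to 1.18) and 1.32 (1.30 to 1.34) in the same order. The lowest was miR-133b, a muscle miRNA, with 314 rpm in MO-Tbx5a embryos and 490.4 rpm in MO-Ct embryos and a FC of 0.6396 (0.538 to 0.757), or 0.703 (0.591 to 0.832) after it.

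**Figure D4:**
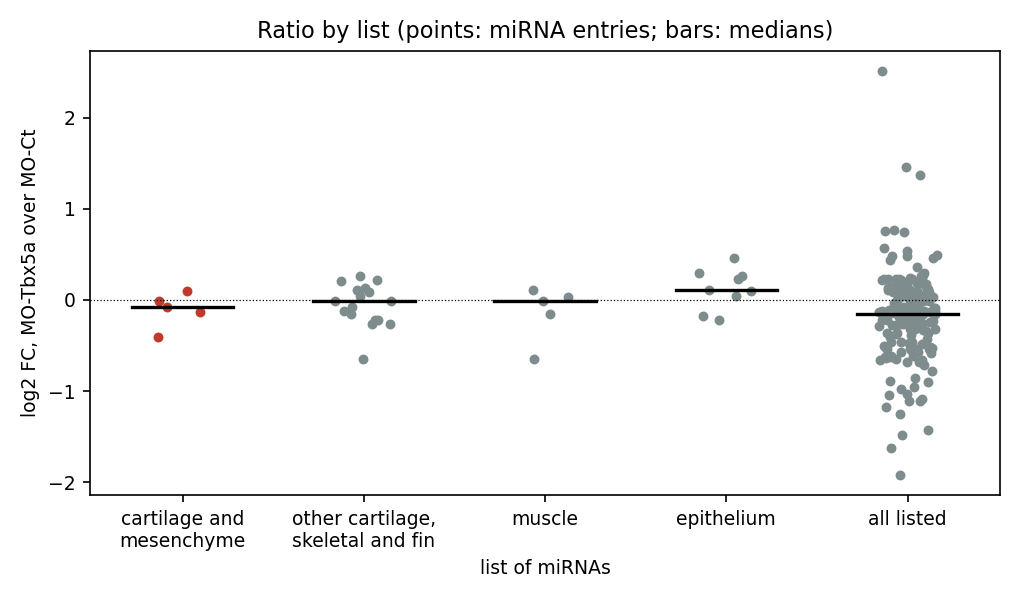
log2 FC (MO-Tbx5a over MO-Ct) of single miRNAs by list, with the median of each list as a bar; the lists share miR-133 and miR-203 entries. The medians are -0.08 for the 5 cartilage and mesenchyme miRNAs, -0.01 for the other cartilage, skeletal and fin miRNAs, -0.01 for muscle, 0.11 for epithelium and -0.16 for all listed miRNAs, and division by the abundant median turns the first 3 above 0, to 0.06, 0.12 and 0.12.

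Markers of other tissues of the embryo were read beside these values. The 5 muscle entries, miR-1, miR-206 and miR-133, summed to 183699 rpm in MO-Tbx5a embryos and 172210 rpm in MO-Ct embryos, a ratio of 1.07, and 2 of them had an interval above 1 and 1, miR-133b, below. Most of this sum was miR-206, with 154331 rpm in MO-Tbx5a embryos and 143278 rpm in MO-Ct embryos. After division by the abundant median 3 of the 5 muscle entries were above and 1 below. The 9 epithelial entries of miR-200, miR-141, miR-429, miR-203 and miR-205 summed to 73226 rpm in MO-Tbx5a embryos and 63517 rpm in MO-Ct embryos, a ratio of 1.15, with 3 intervals above 1 and 2 below. Most of this sum was miR-203b, with 52417 rpm in MO-Tbx5a embryos and 43580 rpm in MO-Ct embryos. The 2 below were miR-200a, with a FC of 0.859, and miR-200b, with a FC of 0.884. Over all miRNAs 17.9% of the intervals were above 1 and 45.7% below. After division by the abundant median 6 of the 9 epithelial entries were above and 0 below, beside 27.2% and 34.0% of all miRNAs. The part of the muscle and epithelial reads in the lower rpm of miR-140 was not tested.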

How the data were processed

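Total RNA of whole embryos was used for small RNA libraries and sequenced on an Illumina GAIIx. Using CLC workbench the authors removed low quality reads, trimmed adaptors, grouped reads of 18 to 33 nt, kept sequences with at least 30 occurrences and annotated these to zebrafish hairpins of miRBase with up to 2 mismatches. For every miRNA name the authors deposited its rpm in each library. Entries carry no hairpin arm, and some were listed with fewer than 30 reads.

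Read totals were recovered as the smallest total between 50000 and 3000000 at which all rpm were whole reads within 0.005 rpm and the reads summed to that total. Tested on simulated data, this found both totals in 20 of 20 pairs. Intervals of FC were Clopper-Pearson intervals of the MO-Tbx5a reads among the reads of both libraries, rescaled by depth. Entries were chosen by name, those named beside them by likeness of level or by fixed families. The families and lists were chosen with earlier results of these data known. Alternatives were pseudocounts of 1 and 10 rpm, 3 scalings, summed names and minimum levels. Python 3.11.15, NumPy 2.4.6, SciPy 1.17.1 and Matplotlib 3.10.9 were used.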

Additional observations from a re-analysis of the deposited data

How the results depend on the processing

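No paired analysis was possible because only 1 library was made per condition, which also left no replicate to leave out. The FC of miR-140 stayed below 1 with each of the 3 scalings. The pseudocounts and the summing of names could not have changed its side. A pseudocount cannot carry a ratio across 1, and miR-140 has a single entry. miR-199 had a FC of 1.04 after division by the median FC, 1.06 after division by the trimmed mean and 1.04 once the 3 most abundant miRNAs were left out, on the other side of 1 from the 0.947 as deposited. With each of these scalings 4 of the 5 entries were above 1, all 4 with intervals that included 1, and miR-140 was below 1. The median log2 FC of the 5 entries was then 0.057, 0.087 and 0.061 in the same order, that of the muscle list 0.12, 0.15 and 0.13, and that of the other cartilage, skeletal and fin list also 0.12, 0.15 and 0.13, against -0.01 as deposited for each of these lists. These shifts follow from the scaling itself, since division by the median sets as many of the abundant miRNAs above 1 as below it. The sum of the 5 entries, for which the alternatives were chosen after seeing the data, had a FC of 0.982 relative to the median FC, 1.00 relative to the trimmed mean, 0.985 with the 3 most abundant left out and 0.954 without miR-140. With related names summed, miR-455 and miR-455b both had 0.9998. The other alternatives kept the member FC within their intervals, 27 of 30 in all, and the ratios within pairs in 20 of 20. The pairs were tried with the pseudocounts only, which change such ratios little. Among all miRNAs, those at least 1.8-fold lower fell to 11 with each scaling and to 3 above 200 rpm in both libraries, against 16 as deposited. Those at least 1.8-fold higher numbered 6 with each scaling and 0 above 200 rpm in both libraries, against 3. Intervals below 1 numbered 55, 54 and 55 with the scalings, against 74, and intervals above 1 numbered 44, 51 and 44, against 29. Depth limits miR-214 and miR-455, with at most 63 reads in a library.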
